A study of Mus musculus with 4 samples.

Results

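The miR-99, miR-100 and miR-125 families were examined as 10 mature miRNA names of the deposited count table, chosen by name from 1900: mmu-miR-99a-5p, mmu-miR-99a-3p, mmu-miR-99b-5p, mmu-miR-99b-3p, mmu-miR-100-5p, mmu-miR-125a-5p, mmu-miR-125a-3p, mmu-miR-125b-5p, mmu-miR-125b-1-3p and mmu-miR-125b-2-3p. The mouse prefix is left out from here on. The rule uses names alone, but the families were picked with earlier results of these data known. The data were small RNA libraries made after immunoprecipitation of Argonaute2 (AGO2), the protein that holds a mature miRNA on its target RNAs, from freshly dissected olfactory bulb of C57BL/6 mice, in a study of let-7 in newborn neurons. In the GFP-AGO2 group (n = 2 libraries, replicates 1 and 3) the mice had received the viral vector LV.PGK.GFP-AGO2, and in the Control group (n = 2, replicates 1 and 3) they were sham-injected with no vector. Tissue was taken 8 weeks after injection in both groups. PGK is the usual name of a promoter active in most cell types, so the vector's name does not restrict AGO2 to neurons. Neither the age of the mice nor the antibody is given in the sources used here. Endogenous AGO2 cargo and plain background in the Control libraries therefore cannot be told apart. The labels do not name a separate mouse for each library, and p-values then measure the spread of these samples alone, possibly technical.

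Mature miRNAs guide AGO2 to messenger RNAs mainly through the seed, bases 2 to 8 from the 5′ end. Each hairpin precursor yields a 5p and a 3p arm, of which AGO2 usually keeps the more abundant guide strand and the other, the passenger, is degraded. The miR-125 family is the mammalian counterpart of lin-4, the first miRNA described in the worm Caenorhabditis elegans, and miR-125b is known in the nervous system for its part in neuronal differentiation and at synapses. The miR-99 and miR-100 family is related to miR-10 and is known for targeting the kinase mTOR, a brake on autophagy. In mammals both families lie with let-7 genes in shared clusters.

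All 10 names had a mature sequence in the RefSeq table (GRCm38.p6), at the positions the count table gives. The 5p arms are shown because they carry most of the counts and fall into only 2 seed groups. Capitals mark the seed.
miR-99b-5p: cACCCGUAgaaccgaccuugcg
miR-99a-5p: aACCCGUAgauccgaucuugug
miR-100-5p: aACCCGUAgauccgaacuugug
miR-125a-5p: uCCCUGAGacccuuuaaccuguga
miR-125b-5p: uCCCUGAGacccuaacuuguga
Counted from the 5′ end, miR-99a-5p and miR-100-5p differed at a single base, U16A, and miR-99a-5p and miR-99b-5p at 4, A1C, U11A, U16C and U21C. A read with an error at base 16 could therefore have been counted for the wrong one of miR-99a-5p and miR-100-5p. MiR-125a-5p and miR-125b-5p were identical at 15 of the 22 positions compared, the seed among them.

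The 3p arms of miR-125 are shown because, unlike their 5p partners, no pair of them shares a seed, so that counts of these arms stand for different sets of seed matches.
miR-125a-3p: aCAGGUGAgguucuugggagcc
miR-125b-1-3p: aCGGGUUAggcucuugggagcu
miR-125b-2-3p: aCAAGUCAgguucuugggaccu
MiR-125a-3p differed from miR-125b-1-3p at A3G, G7U, U11C and C22U, and from miR-125b-2-3p at G4A, G7C, G20C and C22U. The 3p arms of miR-99a and miR-99b both have the seed AAGCUCG.

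The hairpins formed 3 clusters, all on the plus strand (mm10, annotated with GENCODE M21). On chromosome 17, miR-99b-5p (17830194 to 17830215), let-7e-5p (17830366 to 17830387) and miR-125a-5p (17830817 to 17830840) lay within 647 bases, miR-99b and let-7e in an intron and miR-125a in an exon of the protein-coding gene Spaca6. On chromosome 16, miR-99a-5p (77598940 to 77598961) lay 710 bases before let-7c-5p and 47361 bases, end to end, spanned the stretch to miR-125b-5p (77646279 to 77646300), all within introns of Mir99ahg, a noncoding host transcript. On chromosome 9, miR-100-5p (41531437 to 41531458), let-7a-5p and miR-125b-5p (41581940 to 41581961) spanned 50525 bases, within introns of the noncoding transcript 3110039I08Rik. MiR-125b-5p has the same sequence at both of its positions, so its counts cannot be assigned to either cluster, whereas its 3p arms are separate names. None of the 10 overlapped another name.

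The libraries held 2809758 and 1858354 miRNA counts in GFP-AGO2, against 1006861 and 673916 in Control. The 16 names of the miR-200 family and of the miR-183 cluster, miRNAs of epithelial and sensory cells, took 2.61% and 5.10% of the counts in GFP-AGO2 replicates 1 and 3, against 23.9% and 23.4% in Control replicates 1 and 3. A chosen list of vessel, blood and immune miRNAs took 0.0359% and 0.169% in GFP-AGO2, against 0.489% and 0.357% in Control. Most of these counts came from miR-143-3p, with 792 and 2701 counts in GFP-AGO2 and 4269 and 2029 in Control. MiR-143-3p was not called (edgeR adjusted p = 0.0637). Of the 13 names of this list 5 were tested and 3 of these were called lower. MiR-126a-5p, miR-126a-3p, miR-142-3p and miR-486-5p were listed at 0 in every library. Neuronal markers of the bulb were present, with 1.67% and 1.52% of counts in GFP-AGO2 and 1.07% and 1.22% in Control. Of these 6 names miR-9-5p and miR-9-3p were called higher, at log2 fold changes of 1.14 and 1.07, and miR-138-5p lower, at -0.82. MiR-124-3p, miR-128-3p and miR-129-5p were not called, at -0.15, 0.18 and 0.15. A share of counts also depends on what other names take of the total. Of 4 glial names, miR-338-3p, miR-219a-5p and miR-219a-2-3p were listed at 0 throughout, and miR-21a-5p was not called. Every marker at 0 overlaps another annotated name, and such reads may not have been counted, so these zeros do not show absence. In these precipitates, the number of cells of a type, RNA per cell, the cells that carry the vector, binding to AGO2 and background cannot be told apart.

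The 10 names together took 4.59% and 5.42% of the miRNA counts in GFP-AGO2 replicates 1 and 3, against 3.49% and 3.01% in Control replicates 1 and 3. The miR-99 and miR-100 5p arms accounted for 2.64% (95% exact Clopper-Pearson interval 2.62 to 2.66) and 3.15% (3.12 to 3.17) in GFP-AGO2, against 2.07% (2.05 to 2.10) and 1.75% (1.72 to 1.79) in Control. The miR-125 5p arms had 1.85% (1.84 to 1.87) and 2.14% (2.12 to 2.16) in GFP-AGO2, against 1.34% (1.32 to 1.36) and 1.17% (1.15 to 1.20) in Control. Each GFP-AGO2 library thus lay above either Control library for both seed groups, by 0.978 and 0.741 percentage points on average. The exact two-sided permutation test gave p = 0.333 for each, which is the smallest p that 2 libraries against 2 allow. The intervals cover counting error within 1 library only, not the spread between libraries. PCR copies of 1 molecule are counted as separate reads, so the intervals may be too narrow even for that. With those epithelial and sensory counts removed from the total, the miR-99 and miR-100 share was 2.71% and 3.31% in GFP-AGO2, against 2.72% and 2.29% in Control, so that the groups overlapped (exact permutation p = 0.667). The miR-125 share was then 1.90% and 2.25% in GFP-AGO2, against 1.76% and 1.53% in Control, still without overlap (exact permutation p = 0.333).

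Levels are given as CPM, counts scaled to library sizes normalised by TMM. A change is the log2 fold change, GFP-AGO2 over Control, and carries the standard error (SE) of edgeR's quasi-likelihood fit. A change was called at a Benjamini-Hochberg adjusted p under 0.05 over all 457 names tested. Of the 9 family members that passed the filter on low counts, 3 were called higher and 0 lower. Among all 457 names 17.3% were called higher and 17.1% lower, or 34.4% in either direction. The 3 that rose, miR-99b-5p, miR-125a-5p and miR-125a-3p, all come from the chromosome 17 cluster, whose remaining family member, miR-99b-3p, was not called. At an unadjusted p under 0.05 the count of edgeR falls among the members was also 0. DESeq2 called the same 3 members higher and 0 lower. In either direction it called 38.2% of the 421 names to which it gave an adjusted p. The median log2 fold change of the 9 was 0.25, against -0.01 over all 457 names. Of the 10 members, 6 were higher in each GFP-AGO2 library than in either Control library, including miR-99a-3p, which was too low to be tested, and 0 were lower in each. Among all names tested, a base that leaves out miR-99a-3p, 36.8% were separated upward and 35.2% downward.

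**Figure D1:**
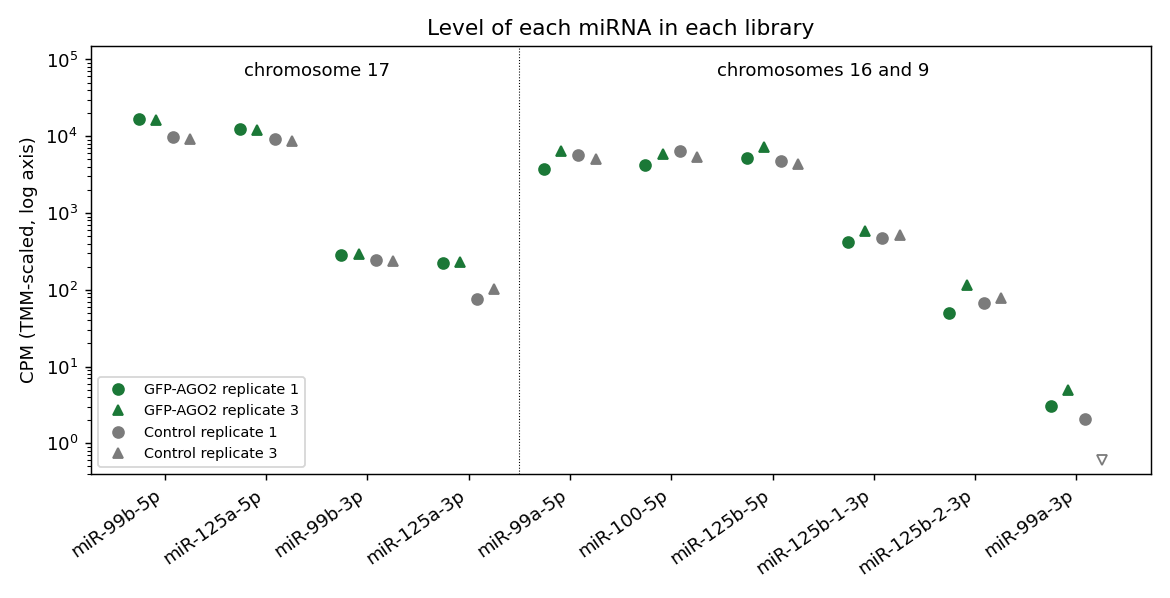
CPM of the 10 names (y axis, log scale) in each library, with GFP-AGO2 in green and Control in grey, replicate 1 as circles and replicate 3 as triangles; the open triangle marks a count of 0. Each GFP-AGO2 library lies above either Control library for the 4 chromosome 17 names, while the libraries interleave for miR-99a-5p and miR-100-5p.

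MiR-99b-5p, the miR-99 guide of the chromosome 17 cluster, was the most abundant of the families in every library. It had 16930 and 16424 CPM in GFP-AGO2 replicates 1 and 3, against 9651 and 9160 CPM in Control replicates 1 and 3. The libraries of each group were close together, at means of 16677 ± 358 CPM in GFP-AGO2 and 9406 ± 347 CPM in Control (SD, n = 2 each). The rise was 1.77-fold (log2 fold change 0.83, SE 0.12, edgeR adjusted p = 0.00687). By count it ranked 13 and 14 among all names in GFP-AGO2, against 22 in both Control libraries. The call was lost when Control replicate 1 was omitted (0.92, adjusted p = 0.0936) and when Control replicate 3 was omitted (0.75, adjusted p = 0.127).

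Its cluster partner miR-125a-5p, the guide strand of miR-125a, had 12292 and 12207 CPM in GFP-AGO2, against 9334 and 8639 CPM in Control. The groups, with means of 12250 ± 59.6 CPM in GFP-AGO2 and 8986 ± 491 CPM in Control (SD, n = 2 each), did not overlap. It rose 1.36-fold (log2 fold change 0.45, SE 0.12, edgeR adjusted p = 0.0389). That call sat near the threshold: it was lost with RLE scaling (adjusted p = 0.0653), with the filter at 50 counts (0.36, adjusted p = 0.0688), and on omission of Control replicate 1 (0.56, adjusted p = 0.223) or 3 (0.35, adjusted p = 0.408).

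MiR-125a-3p, the passenger arm, showed the largest change of the 9 names tested. It had 660 and 468 counts, or 222 and 230 CPM, in GFP-AGO2, against 73 and 62 counts, or 75.9 and 102 CPM, in Control. The means were 226 ± 5.32 CPM in GFP-AGO2 and 89.1 ± 18.7 CPM in Control (SD, n = 2 each), and the rise was 2.55-fold (log2 fold change 1.35, SE 0.22, edgeR adjusted p = 0.00839). Of the 3 rises, it alone was also called without Control replicate 1 (1.20) and without Control replicate 3 (1.53). MiR-99b-3p, the passenger of miR-99b, had 281 and 292 CPM in GFP-AGO2, against 244 and 238 CPM in Control (log2 fold change 0.25, SE 0.15, edgeR adjusted p = 0.263).

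Between these hairpins lies let-7e, a member of the let-7 family, whose arms are given here beside those of its neighbours. Let-7e-5p had 17762 and 16116 CPM in GFP-AGO2, against 15049 and 17142 CPM in Control, and the groups overlapped (log2 fold change 0.07, SE 0.13, edgeR adjusted p = 0.705). Let-7e-3p rose, with 93.6 and 116 CPM in GFP-AGO2, against 32.2 and 41.3 CPM in Control (log2 fold change 1.52, SE 0.28, edgeR adjusted p = 0.0122). Of the 7 cluster neighbours outside the families (the let-7 arms and miR-100-3p), 5 were tested, and with every library let-7e-3p was the only one called by edgeR. Let-7c-5p and let-7a-5p, each with a further position outside these clusters, had 0.17 (adjusted p = 0.297) and -0.33 (adjusted p = 0.0979), and let-7c-1-3p had 0.07 (adjusted p = 0.952). Let-7a-5p was called lower with GFP-AGO2 replicate 1 omitted (-0.40) and with GFP-AGO2 replicate 3 omitted (-0.26). Let-7c-5p was called higher with total counts alone (0.39) and with GFP-AGO2 replicate 3 omitted (0.22). Let-7a-2-3p had 5 and 2 counts in GFP-AGO2 and 0 and 1 in Control, and miR-100-3p had 0 and 0 counts in GFP-AGO2 and 1 and 5 in Control.

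**Figure D2:**
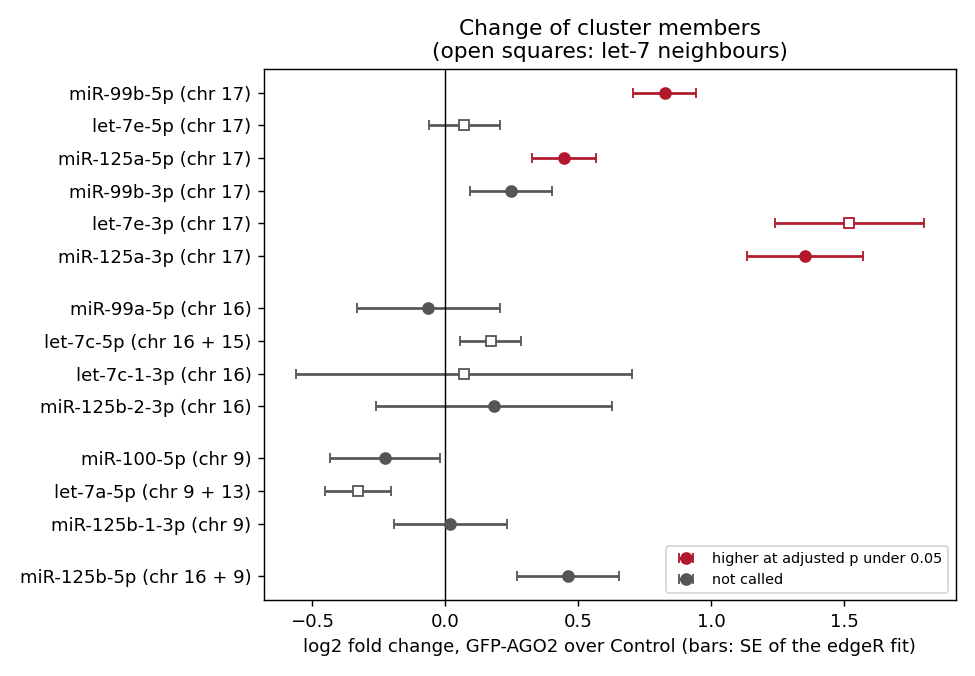
Log2 fold change of GFP-AGO2 over Control (x axis) with its SE for the tested names of each cluster; filled circles are family members, open squares let-7 neighbours, and red marks names called higher by edgeR. The red points, miR-99b-5p, miR-125a-5p, let-7e-3p and miR-125a-3p, all lie on chromosome 17.

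The 5p arms of the clusters on chromosomes 16 and 9 did not pass the test. MiR-99a-5p had 3773 and 6383 CPM in GFP-AGO2 replicates 1 and 3, against 5611 and 4986 CPM in Control replicates 1 and 3. The Control libraries lay between the GFP-AGO2 libraries (log2 fold change -0.06, SE 0.27, edgeR adjusted p = 0.887). MiR-100-5p, its near-copy from chromosome 9, had 4227 and 5874 CPM in GFP-AGO2, against 6437 and 5364 CPM in Control, and the groups again overlapped (-0.22, SE 0.21, edgeR adjusted p = 0.442). Without GFP-AGO2 replicate 3 both were called lower, at -0.49 and -0.48 (adjusted p = 0.00825 and 0.00805), whereas without GFP-AGO2 replicate 1 they had 0.27 and -0.01 and were not called. With total counts alone, a scaling that moved the median of all names by 0.21, miR-99a-5p had 0.16, so no direction is given for it.

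MiR-125b-5p, the guide made from both miR-125b hairpins, had 5241 and 7291 CPM in GFP-AGO2, against 4687 and 4399 CPM in Control. Both GFP-AGO2 libraries were higher, but they lay far apart from each other (log2 fold change 0.46, SE 0.19, edgeR adjusted p = 0.12). This value is close to that of miR-125a-5p, with a larger SE. It was called higher with GFP-AGO2 replicate 1 omitted (0.68) and with no filter (0.70), whereas with GFP-AGO2 replicate 3 omitted it had 0.21 (adjusted p = 0.315). Its passengers overlapped between groups. MiR-125b-1-3p of chromosome 9 had 415 and 581 CPM in GFP-AGO2, against 467 and 515 CPM in Control (0.02, SE 0.21, edgeR adjusted p = 0.956). MiR-125b-2-3p of chromosome 16 had 50.1 and 114 CPM in GFP-AGO2, against 66.5 and 77.6 CPM in Control (0.18, SE 0.44, edgeR adjusted p = 0.79). MiR-99a-3p, the rarest of the 10, had 9 and 10 counts in GFP-AGO2 and 2 and 0 in Control and was not tested.

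The mature names have 21 to 24 bases, so their CPM can be ranked without a correction for length, although ligation and PCR can favour some sequences. In GFP-AGO2 the order of mean levels was miR-99b-5p, miR-125a-5p, miR-125b-5p, miR-99a-5p and miR-100-5p. The libraries of the last 3 overlapped from each to the next. In Control the order was miR-99b-5p, miR-125a-5p, miR-100-5p, miR-99a-5p and miR-125b-5p, with overlap between the first and the second and between the third and the fourth. The 3p arms followed in both groups in the order miR-125b-1-3p, miR-99b-3p, miR-125a-3p, miR-125b-2-3p and miR-99a-3p; in Control the libraries of miR-125a-3p and miR-125b-2-3p overlapped.

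Ratios between names within a library do not depend on scaling. The split by cluster was chosen after the values were known. The 4 chromosome 17 names held 2.17 and 1.44 times the counts of the 6 names of chromosomes 16 and 9 in GFP-AGO2 replicates 1 and 3, against 1.12 and 1.18 times in Control replicates 1 and 3. GFP-AGO2 was higher by 0.62 on the log2 scale, or by 0.92 with GFP-AGO2 replicate 3 omitted and 0.32 with replicate 1 of that group omitted. The exact permutation test gave p = 0.333, the smallest possible, and 0.5 after adjustment over the 9 ratios compared. Within the ACCCGUA seed group, miR-99b-5p had 4.49 and 2.57 times the counts of miR-99a-5p in GFP-AGO2, against 1.72 and 1.84 times in Control. It had 4.0 and 2.80 times those of miR-100-5p in GFP-AGO2, against 1.5 and 1.71 times in Control. MiR-99a-5p over miR-100-5p was 0.893 and 1.09 in GFP-AGO2 and 0.872 and 0.930 in Control, which overlapped. In the CCCUGAG seed group there was no such separation: miR-125a-5p had 2.35 and 1.67 times the counts of miR-125b-5p in GFP-AGO2, on either side of 1.99 and 1.96 times in Control (exact permutation p = 1).

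Within chromosome 17, miR-99b-5p had 0.953 and 1.02 times the counts of let-7e-5p in GFP-AGO2, against 0.641 and 0.534 times in Control. The ratio of miR-125a-5p to let-7e-5p was 0.692 and 0.757 in GFP-AGO2, against 0.620 and 0.504 in Control. MiR-99b-5p over miR-125a-5p was 1.38 and 1.35 in GFP-AGO2, against 1.03 and 1.06 in Control. These 3 ratios were higher in each GFP-AGO2 library than in either Control library, with exact permutation p = 0.333 each and 0.5 after adjustment over the 9 ratios.

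The share of counts from the 3p arm also depends only on counts within a library. The hairpin of miR-125a is shown because both of its arms were called higher; capitals mark the 5p arm and then the 3p arm (RefSeq, GRCm38.p6, chr17:17830812-17830879, plus strand).
Mir125a: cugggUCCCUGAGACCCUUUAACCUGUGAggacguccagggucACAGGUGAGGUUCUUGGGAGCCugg
The 3p arm made up 1.77% and 1.85% of the miR-125a counts in GFP-AGO2 replicates 1 and 3, against 0.806% and 1.17% in Control replicates 1 and 3. The exact 95% intervals were 1.64 to 1.91 and 1.68 to 2.02 in GFP-AGO2 and 0.633 to 1.01 and 0.899 to 1.5 in Control. No GFP-AGO2 interval reached a Control interval, which also held for let-7e, miR-99b and miR-125b. Such intervals cover counting error within a library, not the spread between libraries. On the log2 scale the ratio of 5p to 3p changed by -0.90. For let-7e it changed by -1.42, with 3p shares of 0.524% and 0.713% in GFP-AGO2, against 0.214% and 0.240% in Control.

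For miR-99b the shift had the other direction. Its 3p arm made up 1.63% and 1.75% in GFP-AGO2, against 2.47% and 2.53% in Control, a change of 0.58 in the log2 ratio of 5p to 3p. The 3p arms of the miR-125b hairpins together had 8.15% and 8.71% of the miR-125b counts in GFP-AGO2, against 10.2% and 11.9% in Control (0.43). This was the highest passenger share of the families. For miR-99a the 3p share was 0.0802% and 0.0768% in GFP-AGO2, against 0.0370% and 0% in Control, where 0 of 3020 counts allows a share of up to 0.0993% (3 counts of the total). The miR-99a groups were therefore not distinguishable at this depth. The groups did not overlap for any of the 5 hairpins, although miR-99a rests on 2 and 0 Control counts of its 3p arm. Such separation was common in CPM, at 36.8% upward and 35.2% downward of all names tested. The arm ratios of other hairpins were not compared, so no share over all hairpins is given. The exact permutation test gave p = 0.333 for each of the 5, before and after adjustment over the 5.

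**Figure D3:**
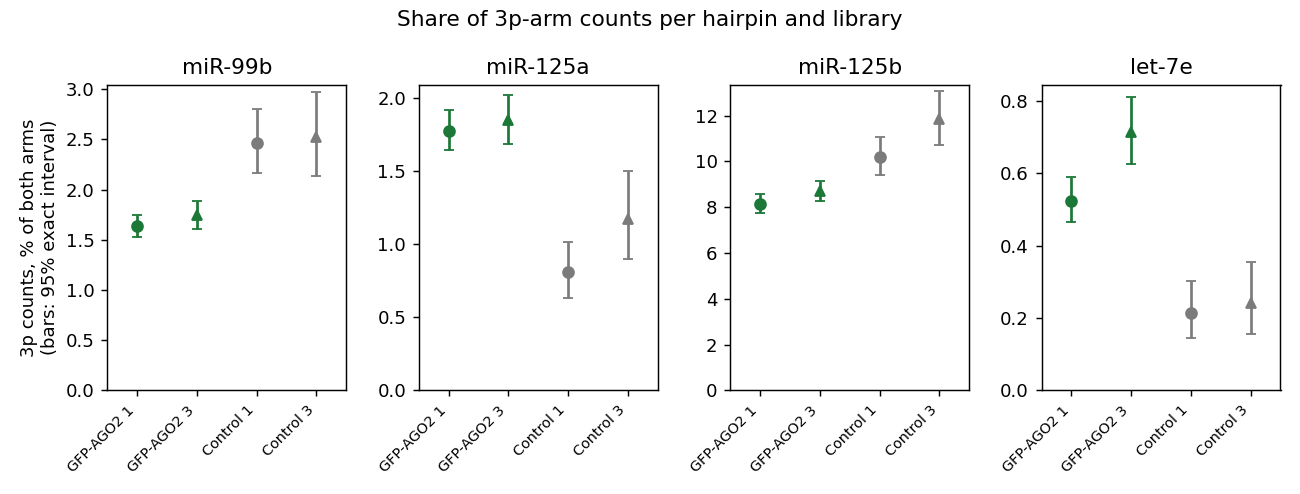
Counts of the 3p arm as a percentage of both arms (y axis, each panel with its own scale from 0) in each library, with exact 95% intervals for counting error; the miR-125b panel sums its 2 named 3p arms. GFP-AGO2 lies above Control for miR-125a and let-7e and below it for miR-99b and miR-125b.

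The GFP-AGO2 libraries differed from each other in the names of chromosomes 16 and 9 and little in those of chromosome 17. GFP-AGO2 replicate 3 had 1.69 times the CPM of GFP-AGO2 replicate 1 for miR-99a-5p, 1.39 times for miR-100-5p, 1.39 times for miR-125b-5p, 1.4 times for miR-125b-1-3p and 2.27 times for miR-125b-2-3p. For the chromosome 17 names this ratio was 0.970 to 1.04. Over the 452 tested names with a count in both libraries its median was 1.06, with quartiles at 0.888 and 1.39. In Control the ratio of replicate 3 to replicate 1 was 0.833 to 1.17 for the same 5 names and 0.926 to 1.35 for those of chromosome 17. The GFP-AGO2 libraries also differed in names of the marker lists. The vessel, blood and immune list, mostly miR-143-3p by count, took 0.0359% and 0.169% of counts in GFP-AGO2 replicates 1 and 3. In the same libraries the 8 epithelial and sensory names took 2.56% and 5.0%. The part of cell content in the difference between the libraries was not tested.

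**Figure D4:**
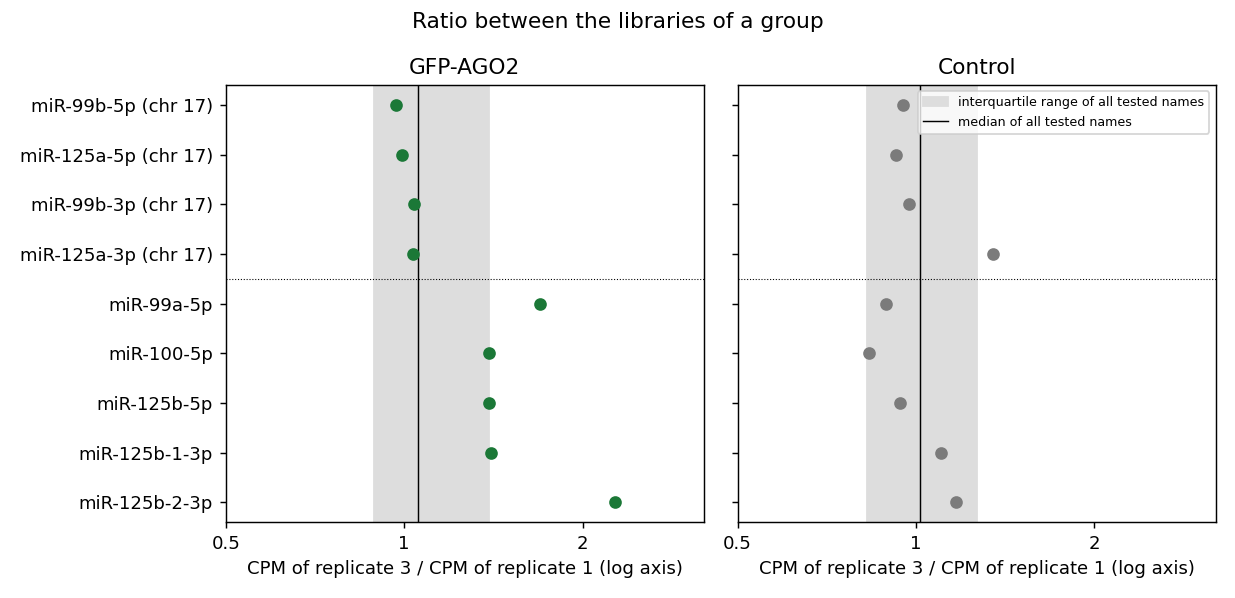
CPM of replicate 3 over CPM of replicate 1 (x axis, log scale) for the 9 tested names in GFP-AGO2 (left) and Control (right), with the interquartile range (grey) and median (line) of all tested names. In GFP-AGO2 the 5 names below the dotted line lie at 1.39 to 2.27, and the chromosome 17 names above it at 0.970 to 1.04.

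Relatives encoded elsewhere were rare. Among the names counted, 3 others share the seed CCCUGAG in RefSeq, and none shares ACCCGUA. Of these, miR-351-5p, encoded on the X chromosome, had 10 and 33 counts in GFP-AGO2 and 55 and 16 in Control (log2 fold change -2.15, SE 0.83, edgeR adjusted p = 0.103), and miR-6367 and miR-6394 had no counts. The other arm, miR-351-3p, had 0 and 0 counts in GFP-AGO2 and 5 and 1 in Control. The miR-10 sequence has an inserted base relative to miR-99 and so another seed.
miR-10a-5p: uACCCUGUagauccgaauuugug
MiR-10a-5p had 39 and 112 counts in GFP-AGO2 and 105 and 114 in Control, or 13.1 and 55.0 CPM against 109 and 188 CPM (-2.14, SE 0.71, edgeR adjusted p = 0.0673). MiR-10b-5p had 4 and 18 counts in GFP-AGO2 and 13 and 31 in Control (-2.68, SE 1.07, edgeR adjusted p = 0.113). The 3p arms of miR-10a and miR-10b had no counts. These 3 tested relatives were higher in GFP-AGO2 replicate 3 than in replicate 1, like the names of chromosomes 16 and 9, by 4.19 times (miR-10a-5p), 6.56 times (miR-10b-5p) and 4.81 times (miR-351-5p) in CPM. None of the 3 was called by edgeR with group alone in the fit, every library and the filter on low counts. With the replicate number as a block in that fit, miR-10a-5p and miR-10b-5p were called lower (-2.38 and -2.82). With no filter edgeR called all 3 lower, as did DESeq2 (DESeq2 adjusted p = 0.00275 for miR-10a-5p, 0.0401 for miR-10b-5p and 0.0469 for miR-351-5p). With 1 library omitted at a time, miR-10a-5p ranged over -3.48 to -1.42, miR-10b-5p over -4.46 to -1.52 and miR-351-5p over -3.63 to -1.39. The lowest value of each came from omission of GFP-AGO2 replicate 3.

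Among 190 other tested names with a mean of at least 100 CPM, those whose deviations over the 4 libraries were nearest to the summed miR-99 and miR-100 5p arms were miR-1839-5p, miR-668-3p and miR-30a-5p, at mean absolute differences of 0.04, 0.05 and 0.05 on the log2 scale. For the summed miR-125 5p arms they were miR-668-3p, miR-1839-5p and miR-107-3p, at 0.02, 0.04 and 0.05. None of these 4 names was called by edgeR, with log2 fold changes of 0.34 to 0.48. With 4 libraries this likeness is a description only.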

How the data were processed

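The deposited values are whole-number read counts per mature miRNA name, made by the authors, per the file headers, with featureCounts v1.4.6-p1 from primary alignments to a mouse miRNA annotation for mm10, with no strand option. Cutadapt and STAR were used, per the submitters' processing notes; the sources used here give no version. Libraries were tied to groups by their titles.

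The counts were tested with edgeR 4.0.16 (R 4.3.3; quasi-likelihood F test, TMM scaling, filterByExpr at a minimum count of 10), which left 457 of 1900 names and between 99.88% and 99.93% of each library's counts. The SE is the log2 fold change divided by the square root of F. Shares and ratios were compared in SciPy 1.17.1; arm and name ratios had 0.5 counts added to each side. DESeq2 1.42.0, other scalings and filters, a replicate block and each library left out were alternatives. The fit was tested on data simulated with the same dispersion for every name, so that test does not give the error rate of these calls. Replicates differed by more than sampling noise (chi-square 47318 on 431 degrees of freedom in GFP-AGO2 and 4323 on 336 in Control). The names reported are the 10 members, lists of neighbours, relatives and markers, and the 3 most alike names. Members and lists were chosen with earlier results of these data known. Names with several positions were kept.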

Additional observations from a re-analysis of the deposited data

How the results depend on the processing

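With 1 library left out at a time, the same 457 names gave 47 to 94 rises and 43 to 106 falls in all, against 79 and 78 with every library, and 1 to 4 rises and 0 to 2 falls among the 9 tested members. Without Control replicate 1 the counts were 47, 43 and 1 member rise, and without Control replicate 3 there were 49 rises in all and 1 member rise, miR-125a-3p both times. Without GFP-AGO2 replicate 3, miR-99a-5p and miR-100-5p were the 2 falls. A fit that leaves an arm with 1 library assumes that this library varies like the other group. Labels give both groups the numbers 1 and 3, but nothing says that these pair the libraries, and deviations of same-numbered libraries had a correlation of -0.0584 over 457 names. With the replicate number as a block, 79 names were called higher and 85 lower in all, and 2 and 0 members; miR-125a-5p was the member no longer called (0.45, adjusted p = 0.107), let-7c-1-3p had -0.080, and miR-10a-5p and miR-10b-5p were called lower (-2.38 and -2.82). DESeq2, RLE scaling, total counts alone, no filter, the filter at 50 counts and names with several positions left out gave 2 to 4 member rises and 0 member falls. In all, total counts alone gave 100 rises and 66 falls, and no filter 118 and 84 of 1106 names. Some small values that were not called with every library changed sign. MiR-99a-5p had 0.16 with total counts alone and 0.17 with no filter, and -0.49 to 0.27 with 1 library left out. MiR-100-5p had 0.012 with no filter. With the filter at 50 counts miR-125b-1-3p had -0.073 and let-7e-5p -0.014. With 1 library left out, miR-125b-1-3p ranged over -0.24 to 0.25, miR-125b-2-3p -0.52 to 0.67 and let-7c-1-3p -0.83 to 0.65. The log2 ratios ranged over -0.012 to 0.27 for miR-99a-5p over miR-100-5p, -0.24 to 0.25 for miR-125a-5p over miR-125b-5p and -0.41 to 0.28 for miR-125b-1-3p over miR-125b-2-3p. The cause was not tested. Differences in the 2 shares and the arm ratios of miR-99b, miR-125a and miR-125b kept their direction under each alternative run. That of miR-99a rests on 2 and 0 Control counts of its 3p arm and was -1.58 with 0.5 counts added and -0.44 with 2 counts added. Counts under about 10 limit miR-99a-3p, let-7a-2-3p and miR-100-3p.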
